A study of Saccharomyces cerevisiae with 12 samples.

Results

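The 33 genes described here encode 32 subunits of the yeast proteasome and Rpn4, the transcription factor of the proteasome genes. They were taken by gene name from 6352 measured genes, and all 33 were found. The proteasome is the protease that takes apart proteins tagged with ubiquitin. Its core particle is a barrel of alpha rings, which form the gate, and beta rings, which hold the cutting sites. A regulatory particle caps the barrel. The base of that particle carries a ring of ATPases that unfold the substrate, with scaffold subunits and ubiquitin receptors, and the lid carries the enzyme that strips ubiquitin off. Rpn4 is a short-lived protein that the proteasome itself destroys. When proteasome capacity falls short Rpn4 accumulates and raises transcription of the subunit genes through an element in their promoters, which makes a feedback loop.

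RNA of Saccharomyces cerevisiae was sequenced from 12 libraries in 6 groups of 2. BY4741, a laboratory strain, was the wild type, and the other 2 strains lacked SCD6 (Δscd6) or SBP1 (Δsbp1), which code for RNA-binding proteins with RGG motifs found in cytoplasmic RNA granules. Cells grew in YEPD, a rich glucose medium, to an optical density of 0.4 to 0.5, and each strain was sampled without treatment or following 30 minutes with 0.5% sodium azide, which blocks respiration and ATP synthesis and brings on such granules. The series asks how the transcriptome of each strain responds to that stress. The labels do not say whether a deletion strain is 1 clone, nor that both libraries of a group were separate cultures. The p-values then cover no more than the spread between those libraries, and that spread may be technical.

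The values are the authors' own comparisons. Each of 7 comparisons lists a log2 fold change with its raw and adjusted p for every gene, beside a mean normalised count. The words rose and fell are kept for an adjusted p under 0.05 in the authors' deposited table. Values per library and library depths were not analysed here, so each group is given by 1 level rebuilt from the mean count and the log2 changes. Errors are those implied by a log2 change and its p-value, and their median over the subunits was 0.21 on the log2 scale in the wild type azide response. As a check of the labels, each deleted gene was read in its strain. In Δscd6 the authors' deposited table puts SCD6 at 1.29% of the wild type without azide and at 4.45% with it. For SBP1 in Δsbp1 the authors' deposited table gives 0.318% and 1.28%. The normalised counts do not have equal totals. The rebuilt total over all genes was highest in untreated Δscd6 cells (17145600) and lowest in azide-treated Δsbp1 cells (11678100). Its part in the results below is given for the subunits and RPN4 where setting the totals equal changes a count. For the lists of other genes further below, equal totals were not applied. Whether their rises, falls and counts depend on this scaling was not tested. Equal totals were not run for the differences between strains in the azide response, so their dependence on this scaling was not tested.

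The letters before the genes are shown first, because Rpn4 reaches its targets through them. The Rpn4 element was searched as GGTGGCAAA on both strands, from 250 bases before to 50 bases after the start codon, in the RefSeq genome and annotation of R64. Of the 32 subunit genes 27 held it (84.4%), against 71 of all 5754 promoters of that length (1.23%). Each of the 27 held 1 copy, which began 84 to 183 bases before the start codon with a median of 120. It lay on the strand of the gene in 19 and on the other strand in 8. PRE5, PUP1, RPN10, RPN13, RPN8 and RPN4 itself did not hold these letters, also within 600 bases. A match is a description of the letters and does not show that Rpn4 binds there, and its absence draws nothing about Rpn4. The windows below belong to subunits whose mRNA rose or fell in azide, with the element in capitals and each read 5′ to 3′ on the strand of the gene.
PRE2, chrXVI:732184-732212, plus strand: acagcaaaagGGTGGCAAAacgaagaata
RPT2, chrIV:437906-437934, plus strand: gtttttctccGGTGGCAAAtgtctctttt
RPT6, chrVII:411352-411380, minus strand: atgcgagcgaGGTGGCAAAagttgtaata
RPN9, chrIV:1322086-1322114, plus strand: gctttcatccGGTGGCAAAagtaagaaca
RPN3, chrV:196843-196871, plus strand: acgaaaaacaTTTGCCACCcaagaaagag
RPN1, chrVIII:164838-164866, minus strand: tgtgttttacGGTGGCAAAaggcgagcac
RPT5, chrXV:544855-544883, plus strand: gccaatatgtGGTGGCAAAaatgaattaa
PUP3, chrV:349511-349539, minus strand: tggcactgccGGTGGCAAAaaagtgcaaa
The first 5 belong to subunits that rose in at least 1 deletion strain and the last 3 to subunits that fell in at least 1 strain. PRE8, RPT4 and RPN11 also rose in a deletion strain and hold the element, and their windows are not shown. The same letters therefore stood before genes that moved in opposite directions. In RPN3 the element lies on the other strand and reads TTTGCCACC.

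The stretch before RPN4 is shown because heat shock factor, Yap1, Pdr1 and Pdr3 are known to act on this gene. It runs from 452 to 326 bases before the start codon. Capitals mark, from left to right, letters of Pdr1 and Pdr3 (TCCACGGA, the first copy on the other strand), of Yap1 (TTACTAA) and of heat shock factor (TTCNNGAA overlapping GAANNTTC).
RPN4, chrIV:417034-417160, minus strand: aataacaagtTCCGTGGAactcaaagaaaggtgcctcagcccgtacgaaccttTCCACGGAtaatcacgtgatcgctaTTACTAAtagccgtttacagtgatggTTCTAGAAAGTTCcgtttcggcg
Within 600 bases of the start codon the Pdr1 letters (TCCACGGA or TCCGCGGA) were held by 1.95% of all promoters and by 0 of the 32 subunits. The Yap1 letters (TTACTAA, which on the other strand read TTAGTAA) were held by 13.8% of all promoters and 5 subunits. Heat shock letters (TTCNNGAA or GAANNTTC) were held by 41.5% and 8 subunits. The general stress letters CCCCT were held by 40.1% of promoters and 13 subunits, a share of 40.6%, and were not found before RPN4.

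**Figure D1:**
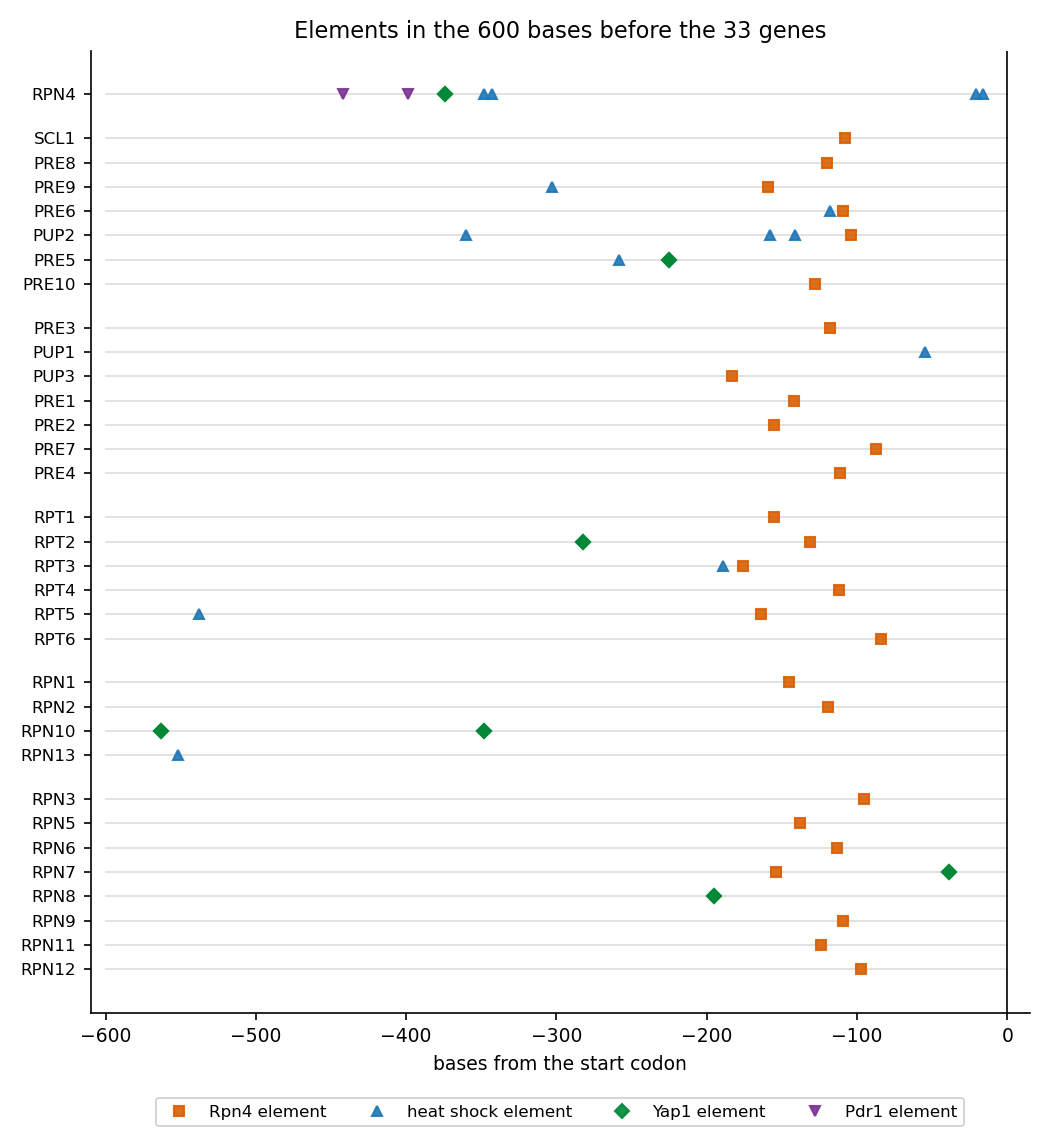
Position of the Rpn4 (squares), heat shock (up triangles), Yap1 (diamonds) and Pdr1 (down triangles) letters in the 600 bases before the start codon of the 33 genes, with bases from the start codon on the x axis and 1 gene per line, ordered by part of the complex. The Rpn4 element sits between 84 and 183 bases before the start codon in 27 subunits, and RPN4 holds the other 3 kinds and no Rpn4 element.

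RPN4 (YDL020C, chrIV:415113-416708, minus strand, R64) rose with azide in every strain. Its level, rebuilt from the authors' deposited table, went from 1201 normalised counts to 2638 in the wild type. In Δscd6 it went from 1104 to 2692, and in Δsbp1 from 1076 to 3115. All 3 azide groups lay above all 3 untreated groups. Its log2 change in the authors' deposited table was 1.14 in the wild type (adjusted p = 9.63e-07), 1.29 in Δscd6 (3.17e-08) and 1.53 in Δsbp1 (1.30e-11). No difference between strains passed. The azide response of Δscd6 exceeded that of the wild type by 0.15 (95% interval -0.44 to 0.74, adjusted p = 0.825) and that of Δsbp1 did so by 0.40 (-0.20 to 0.99, 0.548). The intervals do not show equal responses, since the upper bounds reach 0.74 and 0.99. RPN4 also did not pass in any of the 4 comparisons of a deletion strain with the wild type, where the log2 changes in the authors' deposited table ran from -0.16 to 0.24. RPN4 passed under each of 6 alternative settings in each strain, with log2 changes from 1.14 to 1.81. Its values already met the settings that alter only a cut-off, so nothing is drawn from those. With equal totals its log2 changes were 1.29 in the wild type, 1.68 in Δscd6 and 1.81 in Δsbp1.

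**Figure D2:**
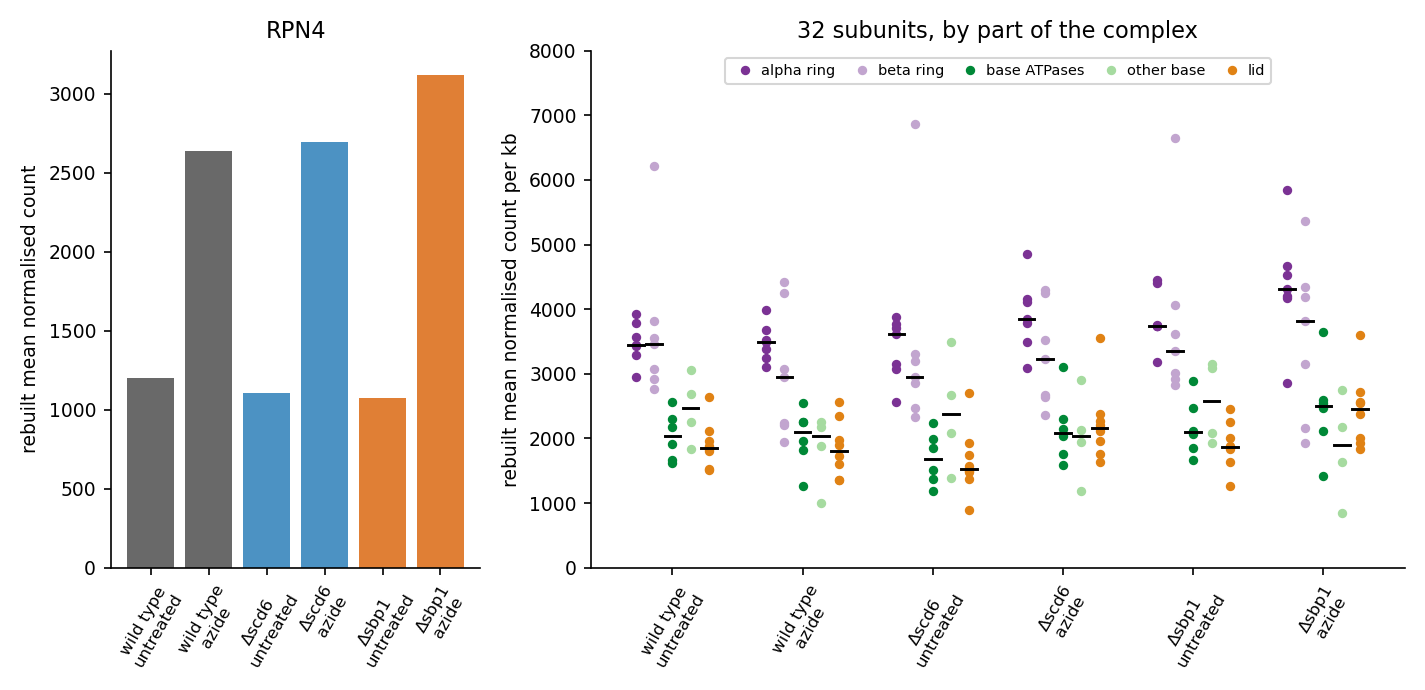
Left, rebuilt mean normalised count of RPN4 in the 6 groups (bars, 1 level per group, no error available). Right, rebuilt mean normalised count per kb of coding sequence of the 32 subunits (points) in the same groups, by part of the complex, with black lines at the median of a part. RPN4 is at 1076 to 1201 untreated and 2638 to 3115 in azide, and the alpha ring medians of 3448 to 4309 lie above the lid medians of 1534 to 2462 in every group.

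The subunit mRNAs were abundant, and by the mean over all groups most lay near a common level. In the authors' deposited table their mean normalised count ran from 1382 for RPN13 to 5622 for RPN2, against a median of 589 over all genes. Per kb of coding sequence the mean count ran from 1365 for RPN1, a scaffold of the base, to 5429 for PUP3, a beta ring subunit, a ratio of 3.98. Of the 32 subunits 24 lay within 1.5 times of the subunit median of 2583 per kb, and that median stood above 86.0% of the genes. The spread was wider in some single groups. In untreated Δscd6 cells 18 lay within that band and the ratio of highest to lowest was 7.69, against 27 and 4.10 in untreated wild type cells. Medians per kb were 3737 for the alpha ring, 3189 for the beta ring, 2032 for the base ATPases, 2236 for the other base subunits and 1987 for the lid. The medians of both core rings lay above those of the parts of the cap, with overlap between single genes, as RPN13 at 2934 and RPN8 at 2922 lay above PRE4 at 2469. Reads outside the coding sequence add more per kb to a short gene, a part that was not tested. No member overlaps another gene of the R64 annotation, whose spans for coding genes run from start to stop codon. Untranslated regions of neighbours and dubious reading frames left out of that annotation were not considered, and no source used here says whether reads were counted by strand.

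**Figure D3:**
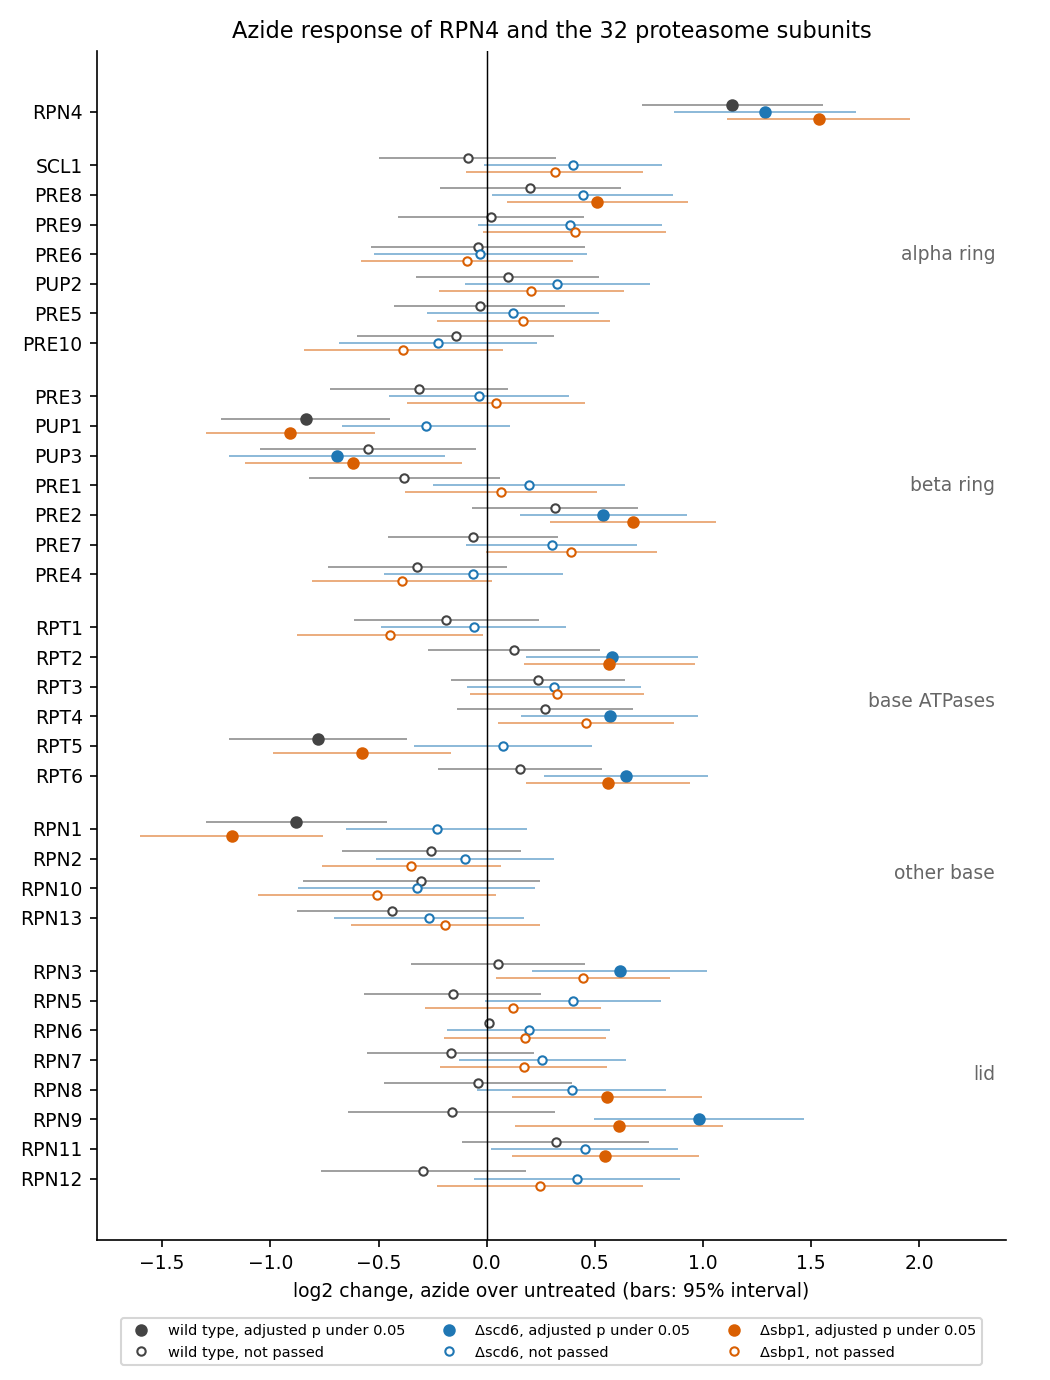
Log2 change of azide over untreated (x axis) for RPN4 and the 32 subunits (lines, grouped by part of the complex) in the wild type, Δscd6 and Δsbp1. Filled points have an adjusted p under 0.05 and bars are 95% intervals from the implied error, missing where the log2 change is below 0.02. RPN4 lies at 1.14 to 1.53, while every subunit lies between -1.18 and 0.98.

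In the wild type no subunit mRNA rose with azide and 3 fell. Rises were 0 of 32 subunits against 21.3% of all genes, and falls were 3 against 20.6%, by the authors' deposited table. At an unadjusted p under 0.05 the authors' test likewise gave 0 rises, and 4 falls, beside 1583 and 1541 among the 6352 genes. The median log2 change of the subunits was -0.12 in the authors' deposited table, against -0.02 over all genes, and 11 of 32 lay above 0.

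In Δscd6 6 subunits rose and 1 fell by the authors' deposited table, against 22.1% of all genes that rose and 20.4% that fell. In Δsbp1 7 rose and 4 fell, against 27.5% and 27.4%, also in the authors' deposited table. The shares that rose in the deletion strains were near those of all genes, and nothing particular to the subunits is read from them. The subunit medians were 0.28 in Δscd6 and 0.17 in Δsbp1 by the authors' deposited table, against -0.02 over all genes in both, and 21 of 32 subunits lay above 0 in either strain. Of the 32 subunits 13 passed in at least 1 strain and 19 in none. The shares of all genes that passed in any strain, or in the same strains, were not computed. Nothing is therefore read from these counts or from the overlaps that follow. PRE2, RPT2, RPT6 and RPN9 rose in both deletion strains, and PUP3 fell in both. PUP1, RPT5 and RPN1 fell in the wild type and Δsbp1. The counts of rises and falls depend on which scaling is used. Centring on the median gene gave 0 rises and 3 falls in the wild type, 6 and 1 in Δscd6 and 9 and 4 in Δsbp1. Of all genes 22.6%, 23.2% and 28.7% then rose and 20.6%, 20.2% and 27.2% fell. With equal totals of the group means every log2 change shifted up by 0.39 in Δscd6, and 20 subunits then rose and 0 fell, while 40.2% of all genes rose and 8.46% fell, so that the share of rising subunits turned from below to above that of all genes. In Δsbp1 the shift was 0.28, with 17 rises and 2 falls among subunits and 38.7% and 19.4% over all genes, and the order of the shares of rises turned there too. In the wild type the shift was 0.15, with 1 rise and 3 falls and 27.6% and 15.7%.

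Of the 7 alpha ring subunits 0 passed in the wild type or in Δscd6 in the authors' deposited table, and 1 passed in Δsbp1, PRE8, which rose. The rebuilt levels of PRE8 went from 2220 to 2554 normalised counts in the wild type, from 1930 to 2628 in Δscd6 and from 2393 to 3410 in Δsbp1. Its log2 changes in the authors' deposited table were 0.20 (adjusted p = 0.465), 0.45 (0.0785) and 0.51 (0.0319). PRE10 had the lowest value of the ring in each strain, at -0.14, -0.22 and -0.39 in the authors' deposited table, with no pass. PRE9, the one core subunit that yeast can live without, gave 0.02, 0.39 and 0.41 there, also with no pass. Medians of the ring were -0.03, 0.33 and 0.21 in the authors' deposited table.

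The beta ring, where the active sites lie, moved in both directions. PRE2 carries the chymotrypsin-like site. Its rebuilt levels went from 3071 to 3824 normalised counts in the wild type, from 2554 to 3711 in Δscd6 and from 2896 to 4630 in Δsbp1. It rose by 0.54 in Δscd6 (adjusted p = 0.0173) and by 0.68 in Δsbp1 (0.00161), and gave 0.32 in the wild type (0.189), by the authors' deposited table. PUP1 carries the trypsin-like site, and its rebuilt levels went from 2720 to 1523 in the wild type, from 2517 to 2072 in Δscd6 and from 2844 to 1517 in Δsbp1. The log2 change of PUP1 in the authors' deposited table was -0.84 in the wild type (1.57e-04) and -0.91 in Δsbp1 (2.38e-05), with -0.28 in Δscd6 (0.251). PRE3, with the caspase-like site, gave -0.31, -0.04 and 0.04 in the authors' deposited table and passed in no strain. The 3 active-site subunits therefore did not share a direction. PUP3, which has no active site, had the highest rebuilt level per kb of all subunits in each untreated group. Its rebuilt levels went from 3842 to 2624 in the wild type, from 4245 to 2628 in Δscd6 and from 4109 to 2681 in Δsbp1, with log2 changes of -0.55 (0.0691), -0.69 (0.0191) and -0.62 (0.0308) in the authors' deposited table. The change in the wild type did not pass, and with equal totals neither fall of PUP3 passed. PRE1, PRE7 and PRE4 passed in no strain.

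Among the 6 ATPases of the base, RPT2 and RPT6 rose in both deletion strains, RPT4 rose in Δscd6, and RPT5 fell in the wild type and in Δsbp1. RPT6 went from 2797 to 3110 rebuilt counts in the wild type, from 2418 to 3776 in Δscd6 and from 3014 to 4441 in Δsbp1. It rose by 0.64 in Δscd6 (adjusted p = 0.00351) and by 0.56 in Δsbp1 (0.00884) in the authors' deposited table, where the wild type gave 0.15 (0.551). RPT2 rose by 0.58 (0.0135) and 0.57 (0.0112) in the authors' deposited table, with 0.13 in the wild type (0.648). RPT4 rose by 0.57 in Δscd6 (0.0185), while its 0.46 in Δsbp1 missed the threshold (0.0502) in the authors' deposited table. RPT5 moved the other way. Its rebuilt levels went from 2845 to 1658 in the wild type and from 2765 to 1855 in Δsbp1, and from 1967 to 2072 in Δscd6. The log2 changes in the authors' deposited table were -0.78 (9.46e-04), -0.58 (0.0132) and 0.08 (0.803) in that order, and the fall in Δsbp1 did not pass with equal totals. RPT1 and RPT3 passed in no strain, and RPT1 was the lowest ATPase in Δscd6 at -0.06.

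The 4 other base subunits had log2 changes below 0 in all 3 strains in the authors' deposited table, and 1 of them, RPN1, passed. RPN1 (YHR027C, chrVIII:161730-164711, minus strand, R64) is a scaffold that docks ubiquitin shuttle factors. Its rebuilt levels went from 5495 to 2986 in the wild type, from 4139 to 3524 in Δscd6 and from 5741 to 2535 in Δsbp1. By the authors' deposited table its log2 change was -0.88 (adjusted p = 2.10e-04) in the wild type, -1.18 (2.49e-07) in Δsbp1 and -0.23 (0.393) in Δscd6. No subunit fell further. RPN2, the related scaffold, gave -0.26, -0.10 and -0.35 there without passing. The ubiquitin receptors RPN10 and RPN13 gave -0.30 and -0.44 in the wild type, -0.32 and -0.27 in Δscd6, and -0.51 and -0.19 in Δsbp1 in the authors' deposited table, none of which passed. These directions depend on the scaling, since the shift to equal totals given above puts all 4 above 0 in Δscd6 and RPN13 above 0 in Δsbp1.

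All 8 lid subunits lay above 0 in both deletion strains in the authors' deposited table, and 3 of 8 did so in the wild type. RPN9 (YDR427W, chrIV:1322205-1323386, plus strand, R64), a scaffold of the lid, went from 1799 to 1609 rebuilt counts in the wild type, from 1056 to 2087 in Δscd6 and from 1488 to 2276 in Δsbp1. It rose by 0.98 in Δscd6 (adjusted p = 4.04e-04), the highest value of any subunit, and by 0.61 in Δsbp1 (0.0254), and gave -0.16 in the wild type (0.627), all by the authors' deposited table. RPN3 rose by 0.61 in Δscd6 (0.00967) and gave 0.45 in Δsbp1 (0.0550) and 0.05 in the wild type (0.863) in the authors' deposited table. RPN11 is the enzyme that removes ubiquitin chains before a substrate is cut, and RPN8 is its partner. RPN11 rose by 0.55 in Δsbp1 (0.0264), with 0.45 in Δscd6 (0.0852) and 0.32 in the wild type (0.244), in the authors' deposited table. RPN8 rose by 0.56 in Δsbp1 (0.0256), with 0.39 in Δscd6 (0.145) and -0.04 in the wild type (0.902), in the authors' deposited table. RPN12 had the lowest value in the wild type at -0.29, and RPN5, RPN6, RPN7 and RPN12 passed in no strain.

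The 27 subunits that held the Rpn4 element and the 5 that did not were set side by side as a description. With the element, medians in the authors' deposited table were -0.09 in the wild type, 0.31 in Δscd6 and 0.21 in Δsbp1. Without it they were -0.30, -0.27 and -0.19. The 44 other genes with the element had medians of -0.14, -0.03 and -0.31 in the authors' deposited table, with 9 rises and 13 falls in the wild type, 12 and 9 in Δscd6 and 8 and 15 in Δsbp1. Of the 5677 other genes without it 1243 rose and 1198 fell in the wild type, 1276 and 1164 in Δscd6, and 1590 and 1576 in Δsbp1 in the authors' deposited table. The element was found before genes that rose and genes that fell.

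Without azide no subunit differed from the wild type past the test in either deletion strain. For Δscd6 the count was 0 of 32 in the authors' deposited table, where 1.45% of all genes were higher and 1.07% lower than in the wild type. The subunit median was -0.14 there and 26 of 32 lay below 0, beside a median of -0.01 and 3259 of 6352 over all genes. At an unadjusted p under 0.05 the authors' test gave 3, all lower, beside 554 higher and 652 lower of the 6352 genes. The lowest subunit was RPN9 at -0.77 (adjusted p = 0.0588), followed by RPT5 at -0.53 (0.133) and RPT2 at -0.50 (0.150) in the authors' deposited table. With equal totals 9 subunits were lower and 0 higher, against 19.6% of all genes lower and 1.05% higher, since every value shifts by -0.28. For Δsbp1 the count was also 0, with 1.54% of all genes higher and 0.441% lower in the authors' deposited table. The unadjusted count was 0 as well, beside 365 higher and 326 lower of the 6352 genes, and the subunits ran from -0.27 to 0.23.

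Under azide most subunits lay above the wild type in both deletion strains, and 1 of them, RPT6 in Δsbp1, passed the test. In Δscd6 the median was 0.20 and 27 of 32 lay above 0, beside a median of 0.03 and 3444 of 6352 over all genes. Of these subunits 0 passed, against 2.03% of all genes higher and 2.28% lower in the authors' deposited table. The unadjusted count was 2, both higher, beside 514 higher and 435 lower of the 6352 genes. In Δsbp1 the median was 0.30 and 25 of 32 lay above 0 in the authors' deposited table. Over all genes the median was -0.015 and 3095 of 6352 lay above 0. RPT6 was higher by 0.51 (adjusted p = 0.0395) and 0 were lower, against 9.29% of all genes higher and 11.9% lower in the authors' deposited table. PRE9 at 0.55 (0.0508) and SCL1 at 0.53 (0.0534), both of the alpha ring, came next in the authors' deposited table and did not pass. All 8 lid subunits lay above 0 there, from 0.21 to 0.50, and passed in no case. At an unadjusted p under 0.05 the authors' test gave 11 subunits in Δsbp1, all higher, beside 990 higher and 1128 lower of the 6352 genes. With equal totals 13 passed, all higher, against 16.3% of all genes higher and 9.44% lower. These comparisons share the wild type libraries, so a value that is high or low in the wild type enters both.

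In tests of the azide responses themselves 2 subunits differed between strains, 1 in each of 2 differences. Each is 3.1% of the subunits, near the share of all genes called, and nothing particular to the subunits is read from these counts. Differences of responses were derived from the authors' log2 changes, with errors implied by their p-values and adjustment over all genes that had a value. RPN9 responded more in Δscd6 than in the wild type, by 1.14 (95% interval 0.46 to 1.82, adjusted p = 0.0328), and was the 1 subunit past the test, where 2.18% of all genes were higher and 1.94% lower. Its level in Δscd6 was below the wild type untreated (1056 against 1799) and above it in azide (2087 against 1609), and neither of those gaps passed by itself. Under a t distribution with 6 degrees of freedom RPN9 no longer passed. RPT5 came next with 0.85 (0.27 to 1.44) and missed the threshold (0.0731). The median difference of the subunits was 0.29 and 29 of 32 lay above 0, beside a median of 0.05 over all genes.

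In Δsbp1 0 subunits differed from the wild type in their azide response, where 0.553% of all genes were higher and 1.67% lower. Without adjustment 1 passed, RPN9 at 0.77 (95% interval 0.09 to 1.45, adjusted p = 0.243), beside 347 higher and 637 lower of 6329 genes. The subunit median was 0.24 with 23 of 32 above 0, beside a median of 0.006 and 3198 of 6352 over all genes. Both differences use the same wild type libraries. Between the deletion strains RPN1 responded lower in Δsbp1 than in Δscd6 by -0.95 (-1.54 to -0.35, adjusted p = 0.0359). No other subunit passed, against 1.53% of all genes higher and 4.04% lower. When the differences were centred on the median gene RPN1 did not pass. Standard errors of these differences ran from 0.27 to 0.40 on the log2 scale, so that small differences were not detectable.

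**Figure D4:**
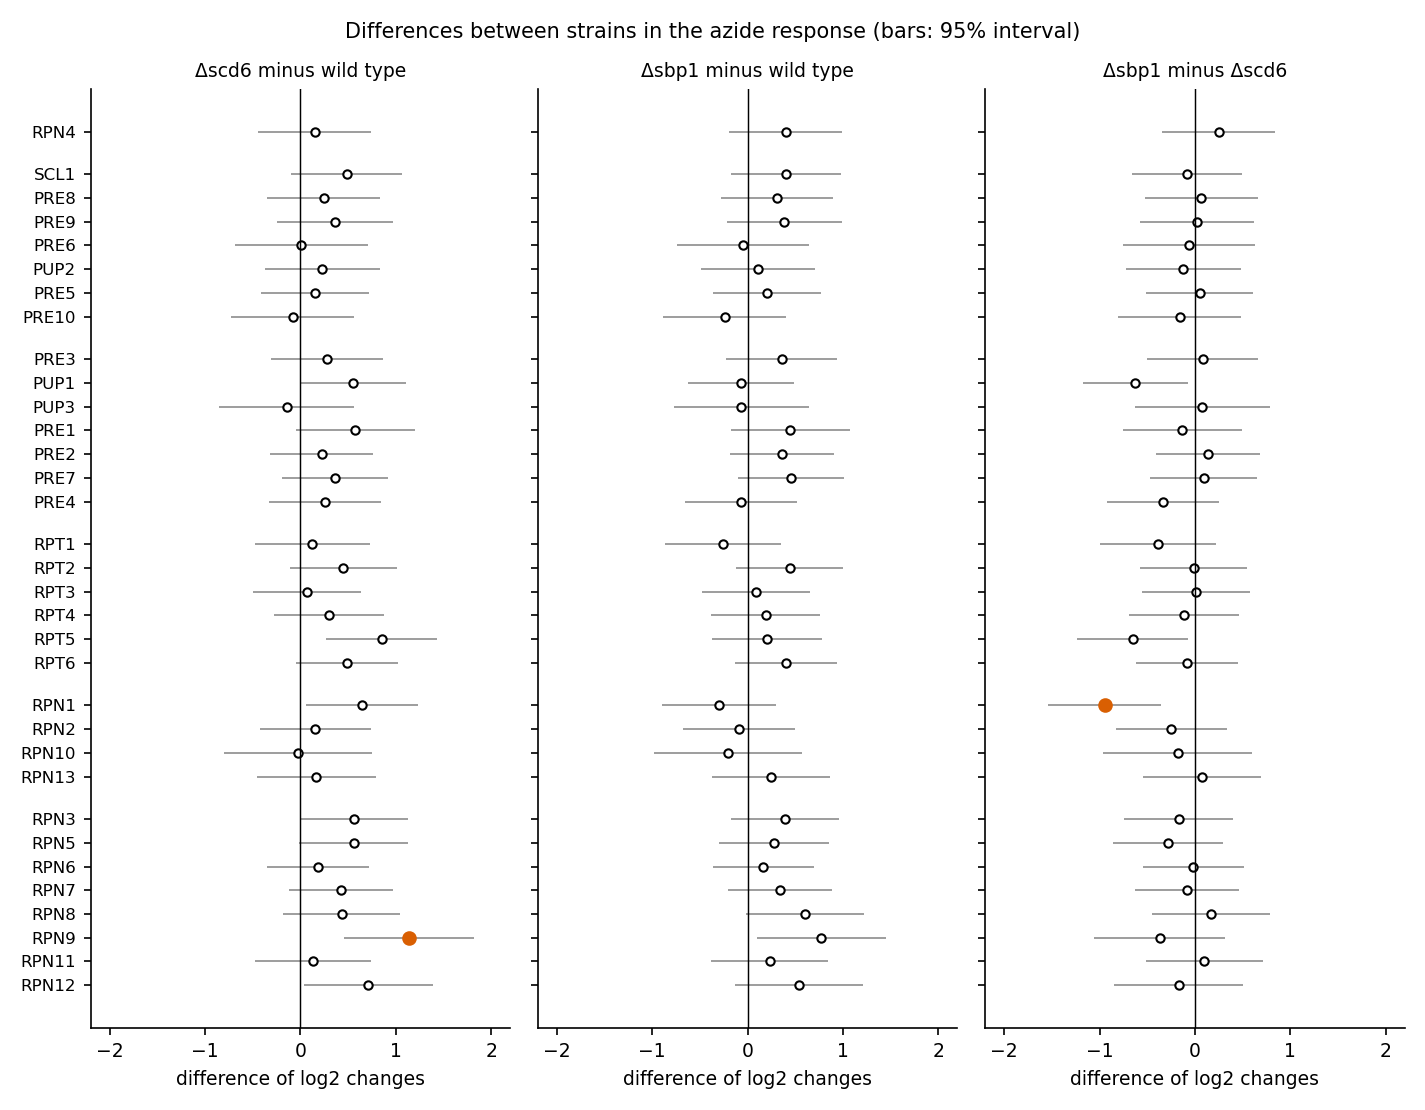
Difference between strains in the log2 change with azide (x axes) for RPN4 and the 32 subunits (lines), with 95% intervals. Filled points have an adjusted p under 0.05, which are RPN9 at 1.14 in the left panel and RPN1 at -0.95 in the right panel.

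Of the genes that help to assemble the proteasome 4 had log2 changes above those of every subunit in each strain. Among 10 assembly chaperones 5 rose and 2 fell in the wild type in the authors' deposited table, against 21.3% and 20.6% of all genes. In Δscd6 4 rose and 0 fell, against 22.1% and 20.4%, and in Δsbp1 5 rose and 0 fell, against 27.5% and 27.4%, in the authors' deposited table. TMA17, a stress-inducible chaperone of the base that is also called ADC17, rose by 2.37 in the wild type (adjusted p = 3.5e-12), 2.12 in Δscd6 (8.8e-10) and 2.58 in Δsbp1 (2.1e-14) in the authors' deposited table. NAS2, HSM3 and RPN14, which each hold ATPases of the base during assembly, also rose in all 3 strains. By the authors' deposited table NAS2 gave 1.08, 1.25 and 1.65, HSM3 gave 0.90, 1.32 and 1.54, and RPN14 gave 1.07, 1.15 and 1.39. NAS6, the remaining chaperone of the ATPases, fell in the wild type by -0.65 (0.033) and gave -0.01 and 0.10 in the deletion strains in the authors' deposited table. The other 5 act on the core particle. IRC25 rose by 0.76 in the wild type (0.0012) and 0.75 in Δsbp1 (0.0011), PBA1 fell by -0.55 in the wild type (0.042), and ADD66, POC4 and UMP1 passed in no strain in the authors' deposited table. Under azide NAS2 (0.82), HSM3 (0.88), TMA17 (0.88) and NAS6 (0.73) were higher in Δsbp1 than in the wild type in the authors' deposited table. In none of the 10 did the azide response of a deletion strain differ from that of the wild type past the test. None of the 10 promoters held the Rpn4 element.

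Of 8 proteins that associate with the particle 0 rose and 2 fell in the wild type, 2 rose and 2 fell in Δscd6, and 2 rose and 3 fell in Δsbp1 in the authors' deposited table. Of all genes 21.3% rose and 20.6% fell in the wild type, 22.1% and 20.4% in Δscd6, and 27.5% and 27.4% in Δsbp1, and with so few genes nothing is read from the list as a whole. UBP6, the deubiquitinase bound to the base, rose by 1.07 in Δscd6 (adjusted p = 2.0e-05) and 0.86 in Δsbp1 (4.0e-04), with 0.15 in the wild type, in the authors' deposited table. HUL5, a ligase that extends ubiquitin chains on bound substrates, rose by 1.17 and 0.76 there, with 0.33 in the wild type. In none of the 8 did the azide response of a deletion strain differ from that of the wild type past the test. Of the 8 responses 1 was lower in Δsbp1 than in Δscd6 and 0 were higher, against 4.04% and 1.53% of all genes. BLM10, an alternative cap of the core, fell in all 3 strains, with -1.07, -0.68 and -1.55 in the authors' deposited table. CIC1, which is also a ribosome assembly factor, fell in all 3 strains, with -1.16, -0.71 and -2.10. ECM29, which binds core and cap together, fell in Δsbp1 with -1.42 in the authors' deposited table. SEM1, a small lid subunit outside the 33 members, passed in no strain.

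Ubiquitin itself comes from 4 genes. UBI4, the stress-induced gene for a chain of ubiquitins, rose by 1.34 in the wild type (adjusted p = 7.6e-09), 1.64 in Δscd6 (1.9e-12) and 1.67 in Δsbp1 (2.4e-13) in the authors' deposited table. RPL40A, RPL40B and RPS31, which make ubiquitin fused to ribosomal proteins, passed in no strain, and RPL40A and RPL40B are near-identical copies whose reads may be shared. Of 11 genes for activation and conjugation 3 rose and 0 fell in the wild type, 3 rose and 1 fell in Δscd6, and 5 rose and 1 fell in Δsbp1 in the authors' deposited table. Of all genes 21.3% rose and 20.6% fell in the wild type, 22.1% and 20.4% in Δscd6, and 27.5% and 27.4% in Δsbp1. UBC8 (1.28, 1.28 and 1.93), UBC6 of the endoplasmic reticulum (0.54, 0.88 and 1.18) and CDC34 (0.58, 0.84 and 0.84), which are ubiquitin-conjugating enzymes, rose in all 3 strains in the authors' deposited table. UBC5 fell in both deletion strains (-0.75 and -1.09). Among the shuttle factors that carry tagged proteins to the proteasome DDI1 rose in all 3 strains (0.86, 0.83 and 1.20), while RAD23 (-0.61 and -0.99) and DSK2 (-1.13 and -1.21) fell in both deletion strains, in the authors' deposited table. The 3 shuttles thus passed in opposite directions.

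Of 10 ligases of protein quality control 2 rose and 5 fell in the wild type, 0 rose and 2 fell in Δscd6, and 3 rose and 6 fell in Δsbp1 in the authors' deposited table. In these strains 21.3%, 22.1% and 27.5% of all genes rose and 20.6%, 20.4% and 27.4% fell. SSM4, a ligase of the endoplasmic reticulum also called Doa10, fell in all 3 strains (-0.71, -0.85 and -1.17), and TOM1 (-1.12 and -1.34) and RKR1, which marks stalled nascent chains (-1.08 and -0.72), fell in the wild type and Δsbp1, in the authors' deposited table. HUL4 rose in the wild type and Δsbp1 (0.86 and 1.44) and fell in Δscd6 (-0.50) in the authors' deposited table. Its response was lower in Δscd6 than in the wild type by -1.36 (adjusted p = 0.0017), and HUL4 stood 1.47 higher in untreated Δscd6 cells. The 17 deubiquitinases gave 3 rises and 7 falls in the wild type, 3 and 2 in Δscd6 and 4 and 4 in Δsbp1 in the authors' deposited table. In both deletion strains these shares did not exceed those of all genes given above. DOA4, which recovers ubiquitin from cargo of the vacuole pathway, rose in all 3 strains (0.76, 1.65 and 1.55) and so did UBP9 (0.70, 0.93 and 1.01), while UBP10 (-1.45, -0.93 and -1.66) and UBP7 (-1.15, -1.04 and -1.05) fell in all 3, in the authors' deposited table.

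Cdc48 is the ATPase that pulls tagged proteins out of complexes and membranes ahead of the proteasome. Of Cdc48 and 13 cofactors 4 rose in the wild type, 6 in Δscd6 and 6 in Δsbp1, and 0 fell in any strain, in the authors' deposited table. Of all genes 21.3%, 22.1% and 27.5% rose and 20.6%, 20.4% and 27.4% fell. CDC48 itself gave 0.04, 0.41 and 0.17 and passed in no strain. Its promoter window holds the Rpn4 element, as do those of UBI4, UBA1, ECM29, YAP1, CCT6 and ATG14 in the other lists. UBX6 rose most, by 2.89 in the wild type (adjusted p = 1.9e-32), 2.85 in Δscd6 (4.5e-31) and 3.39 in Δsbp1 (8.8e-43) in the authors' deposited table. UBX3 (1.07, 1.19 and 1.55) and UBX5 (0.68, 0.91 and 0.80) also rose in all 3 strains, and UBX7 in the wild type (0.88) and Δsbp1 (0.93), in the authors' deposited table. These 4 are adaptor proteins of Cdc48.

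Of the 6 genes that act on RPN4 or its protein 0 rose and 2 fell in the wild type in the authors' deposited table. In Δscd6 1 rose and 0 fell, and in Δsbp1 0 rose and 2 fell there. Of all genes 21.3%, 22.1% and 27.5% rose and 20.6%, 20.4% and 27.4% fell. With so few genes nothing is read from the list as a whole. At an unadjusted p under 0.05 the authors' test gave 1 higher and 3 lower in the wild type. In the authors' deposited table YAP1 (-0.15, 0.05 and -0.21), HSF1 (0.48, -0.10 and -0.10) and PDR3 (0.37, 0.38 and 0.35), all transcription factors, passed in no strain. PDR1, the relative of PDR3, fell in the wild type (-0.79, adjusted p = 0.014) and Δsbp1 (-0.93, 0.0025) and gave -0.04 in Δscd6 in the authors' deposited table. UBR2, the ligase that marks Rpn4 for destruction, fell in the wild type (-0.73, 0.047) and Δsbp1 (-0.91, 0.0091) and gave 0.34 in Δscd6 in the authors' deposited table. MUB1, the partner that Ubr2 needs for this, rose in Δscd6 (0.70, 0.010) and gave -0.53 in the wild type (0.058) and -0.15 in Δsbp1 in the authors' deposited table. The azide response of MUB1 was higher in Δscd6 than in the wild type by 1.23 (adjusted p = 0.012). In that difference 2.18% of all genes were higher and 1.94% lower. No other of the 6 differed between strains in a test of the azide response.

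Another abundant complex and another route of degradation were set beside the proteasome. TRiC, the chaperonin that folds actin and tubulin, had 0 rises among its 8 subunits in each strain in the authors' deposited table. It had 3 falls in the wild type, 3 in Δscd6 and 7 in Δsbp1 there. Of all genes 21.3%, 22.1% and 27.5% rose and 20.6%, 20.4% and 27.4% fell. Its medians were -0.55, -0.23 and -0.82, against -0.12, 0.28 and 0.17 for the proteasome. CCT7 fell in all 3 strains (-1.55, -0.80 and -1.51), and CCT6 fell in Δscd6 (-1.08) and Δsbp1 (-1.63), in the authors' deposited table. Of 21 autophagy genes, which serve the degradation of cytoplasm in the vacuole, 8 rose and 0 fell in the wild type in the authors' deposited table. In Δscd6 15 rose and 1 fell, and in Δsbp1 13 rose and 0 fell there. Of all genes 21.3%, 22.1% and 27.5% rose and 20.6%, 20.4% and 27.4% fell. ATG8, the protein that coats autophagic membranes, rose by 2.06, 2.81 and 2.88, and ATG29 (1.75, 2.77 and 2.37), ATG3 (1.79, 2.01 and 2.54) and ATG7 (1.31, 2.13 and 1.68) rose in all 3 strains in the authors' deposited table. Medians of the autophagy list were 0.55, 0.80 and 0.68, above those of the proteasome subunits in each strain. The difference between these lists was described and not tested.

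**Figure D5:**
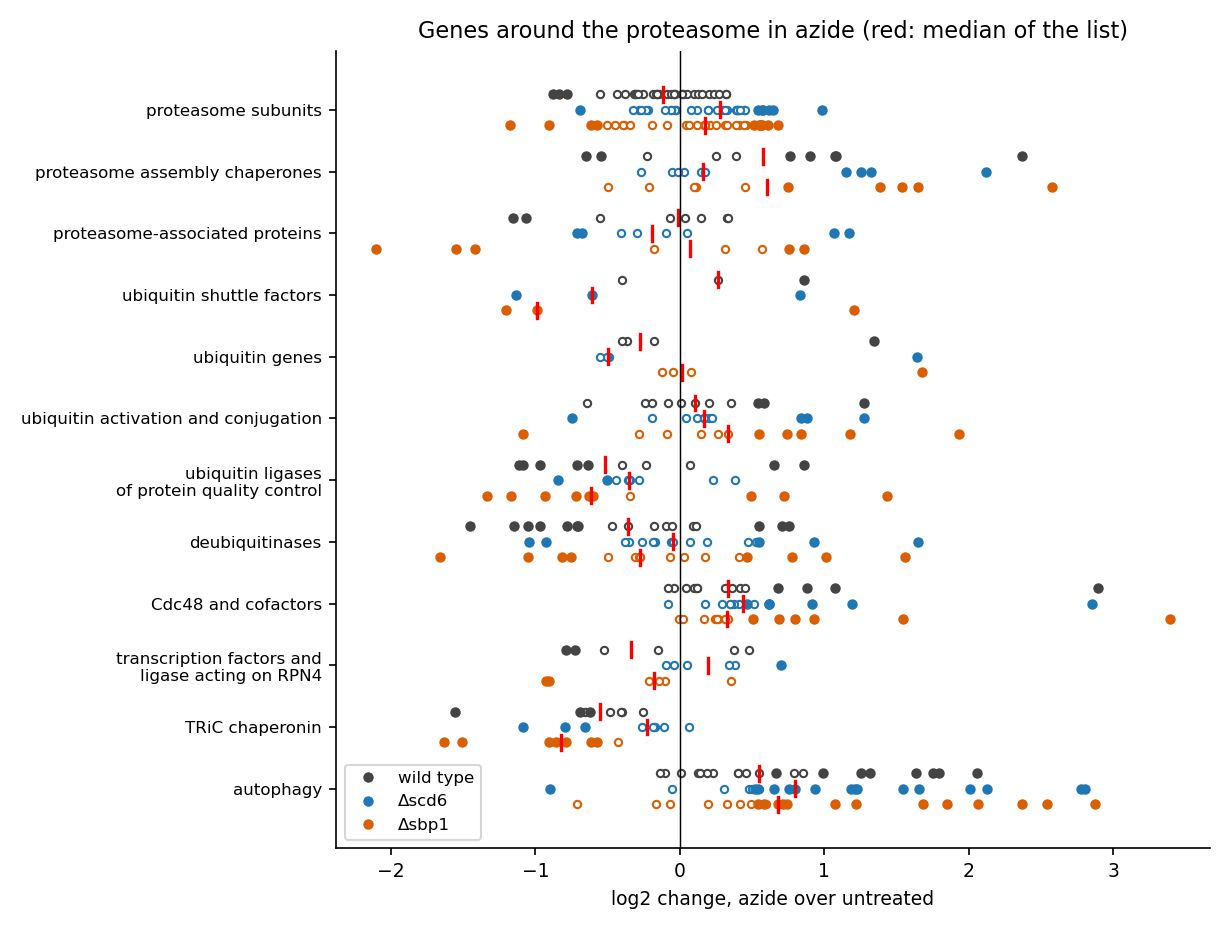
Log2 change of azide over untreated (x axis) for every gene of the proteasome and of the 11 lists around it in the wild type, Δscd6 and Δsbp1, with filled points at an adjusted p under 0.05 and red lines at list medians. Subunits lie between -1.18 and 0.98, while TMA17 reaches 2.58 among assembly chaperones, UBX6 reaches 3.39 among Cdc48 cofactors and ATG8 reaches 2.88 among autophagy genes.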

How the data were processed

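Total RNA was isolated with hot phenol and made into Illumina libraries with a NEB Next kit, per the labels' protocols. Per the submitters' processing notes the tools included edgeR, featureCounts, Picard and STAR 2, with no role stated. Build, strandedness and treatment of shared reads: not given in the sources used here. Each of 7 tables holds 6352 genes. Per the file headers it gives a mean normalised count, a signal identical in all tables, with a fold ratio, its log2 value, the raw p-value and its adjusted form, all by the authors. The adjusted p equals a Benjamini-Hochberg adjustment to within 4.6e-08. The members and gene lists were chosen with earlier results of these data known.

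Group levels were rebuilt from the mean and the log2 changes, with equal weight for the 6 groups and the fold taken as a ratio of group means. A standard error was implied by dividing the size of the log2 change by the normal quantile that matches its p-value, for changes of at least 0.02, which left 9 values of 7 members without one. The variance of a difference from the wild type response was the larger of 2 routes, over the azide responses or over the comparisons with the wild type, whose ratio had a median of 1.00. That of Δsbp1 minus Δscd6 came from the azide responses alone. Differences were tested against a normal distribution. These steps were run on simulated data whose p-values came from the same normal test. That run cannot show whether the authors' p-values follow such a test. Named genes are RPN4, the deleted genes, every subunit past a test, the highest and lowest of each part of the complex, up to 4 called members of each other list and all genes that act on RPN4. A few others are named as the rest of a group and were chosen after their values were seen. R64 matched 5764 of the gene IDs. Python 3.11.15, numpy 2.4.6, pandas 2.3.3, scipy 1.17.1 and matplotlib 3.10.9 were used. Depth per library was not analysed here, so no interval from counts is given.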

Additional observations from a re-analysis of the deposited data

Results flagged for a closer look

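Both flagged results are differences between strains in the response to azide, by a test of the difference itself. RPN9 responded more in Δscd6 than in the wild type, with a difference of 1.14 on the log2 scale. RPN1 responded lower in Δsbp1 than in Δscd6, with a difference of -0.95. The rebuilt levels behind RPN9 are 1056 and 2087 in Δscd6 and 1799 and 1609 in the wild type, and those behind RPN1 are 5741 and 2535 in Δsbp1 and 4139 and 3524 in Δscd6. Their part in either result of the larger total count in untreated Δscd6 cells was not tested.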

How the results depend on the processing

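No paired analysis was possible because the tables hold comparisons and no values per library, and leaving out each replicate was not run for the same reason. Counts below are of 32 subunits past the test, and the cause of a change was not tested. At an adjusted p under 0.01 the count fell from 7 to 3 in the azide response of Δscd6, from 11 to 4 in Δsbp1, and from 1 to 0 for Δsbp1 against the wild type in azide, for the response of Δscd6 minus wild type and for that of Δsbp1 minus Δscd6. With a log2 change of at least 1 required as well, 0 were left in the wild type and Δscd6 responses and in Δsbp1 against the wild type in azide, and 1 in the Δsbp1 response. Without adjustment 3 passed for untreated Δscd6, 2 for Δscd6 in azide, 11 for Δsbp1 in azide, and 5, 1 and 3 for the differences of responses of Δscd6 minus wild type, Δsbp1 minus wild type and Δsbp1 minus Δscd6. Over all genes these counts were 1206, 949 and 2118, and 1284, 984 and 1061 for the differences, in the same order. Equal totals gave 20 in the Δscd6 response, 19 in the Δsbp1 response, 9 for untreated Δscd6 and 13 for Δsbp1 in azide. For Δsbp1 in azide a mean normalised count of at least 100 gave 2 and centring on the median gene 3. Centring left 0 for Δsbp1 minus Δscd6, and a t distribution with 6 degrees of freedom left 0 for Δscd6 minus wild type. Of 25 single calls that equal totals could alter, 22 held and 3 were lost, and 0 reversed. SEM1 added as a subunit, an alternative chosen after seeing the data, changed no count.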
